A study of Mus musculus with 2 samples.

Results

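The laminin, nidogen and perlecan genes of the basement membrane were followed across the cells of mouse tumors. The 10 genes were chosen by name, not by their values: the laminin α chains *Lama2*, *Lama3*, *Lama4* and *Lama5*, the β chains *Lamb1* and *Lamb2*, the γ chain *Lamc1*, the nidogens *Nid1* and *Nid2*, and perlecan, *Hspg2*. They are 10 of the 32285 genes counted. Laminins are secreted as trimers of an α, a β and a γ chain that assemble into a sheet under endothelial and epithelial cells and around pericytes. Nidogens and perlecan bind this sheet and hold it to the separate network of type IV collagen. In vessels, endothelial cells and pericytes share a basement membrane, and the α chain of a laminin sets which receptors it binds, *Lama4* and *Lama5* being the chains known from endothelium. The question asked of the data was which cells of the tumor hold the transcripts of this membrane, and how their levels compared between the genotypes.

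The samples were single-cell RNA libraries of tumors grown from LLC, a Lewis lung carcinoma line, in C57BL/6 mice. One library came from *sGC Ctr* mice (*Gucy1b1* flox/flox) and the other from *sGC ΔPC* mice (*Cspg4-CreER T2* with *Gucy1b1* flox/flox, a gene the labels also spell *Gucyc1b1*), in which the *Cspg4* promoter drives a tamoxifen-dependent Cre meant to remove the β1 subunit of soluble guanylate cyclase from pericytes. Mice of both genotypes carried the floxed alleles and were given tamoxifen 5 times at an age of 4 weeks, were inoculated under the skin at 8 weeks, and had their tumors dissected 2 weeks later. Cells of 3 tumors were pooled in each library, so each genotype is 1 sample, genotype and library cannot be told apart, and no test between them was possible. All intervals given are exact 95% intervals (Poisson for levels, binomial for shares, conditional binomial for ratios) that cover counting error only.

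The libraries held 15007 barcodes in *sGC Ctr* and 25631 in *sGC ΔPC*, of which 12220 and 22498 passed the filters, and 131 barcode sequences occurred in both libraries. Depth differed, with a median of 23337 UMIs (counted molecules) per barcode in *sGC Ctr* and 8019 in *sGC ΔPC*. Cells were assigned to a class where the summed UMIs of that class's markers passed a line and at least 3 markers were found. No member was among the markers, and cells that passed the lines of several classes were left out, with no doublet caller run. This gave 66 and 61 endothelial cells (ECs), 38 and 44 pericytes, 129 and 264 fibroblasts, 7106 and 12218 cancer cells, 2108 and 2908 macrophages, 328 and 403 granulocytes, and 80 and 70 T cells, each in the order *sGC Ctr* and *sGC ΔPC*, which is kept below. The cells of no class numbered 2300 and 6273. The endothelial list stood at a median of 81.3 and 61.4 per 10000 UMIs in ECs. The pericyte list was at 115 and 90.3 in pericytes and the fibroblast list at 281 and 177 in fibroblasts. The gate itself asks for these markers, so their levels do not test the class names. Leiden clusters, described below, set ECs, pericytes and fibroblasts apart in *sGC Ctr* but not in *sGC ΔPC*. A class is a range of a score and not a sharp type, and 5 and 27 ECs, 1 and 11 pericytes and 23 and 105 fibroblasts lay within 1.5-fold of their line. Summed over the cells, pericytes also carried smooth muscle markers at 44.2 and 39.7 per 10000 UMIs and fibroblast markers at 21.7 and 18.7. The medians over pericytes were lower, at 11.5 and 6.34 for smooth muscle markers and 15.4 and 11.8 for fibroblast markers. ECs carried the adipocyte list, which holds the fatty acid carrier *Fabp4*, at 26.4 and 9.96 summed and at medians of 10.2 and 3.22. The endothelial list, summed over the cells, stood at 4.80 and 3.88 in pericytes against 83.7 and 74.1 in ECs. The part of EC RNA in pericytes was not estimated. RNA of cancer cells in the other classes, estimated from cancer markers, made up 7.52% and 5.91% of UMIs in ECs, 6.37% and 13.7% in pericytes, 6.05% and 17.3% in fibroblasts, and 8.09% and 11.5% in macrophages.

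As a check of the labels, *Gucy1b1* stood at 132 CPM (UMIs per 1e6 UMIs of the class) in pericytes of *sGC Ctr* (58 UMIs) and at 36.6 CPM in those of *sGC ΔPC* (12 UMIs), a log2 ratio of -1.85 (-2.88 to -0.94). The floxed exons are not given in the sources used here, so it is not known whether the counted 3' end lies within the deleted part. *Cspg4*, whose promoter drives the Cre, was at 168 and 73.3 CPM in pericytes and also at 54.8 and 31.5 CPM in macrophages.

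Each transcript was counted once, at its 3' end, so that levels carry no scaling by gene length. The genes lie on separate chromosomes apart from *Lama2* and *Lama4*, which are both on chromosome 10 (GRCm38, 26980036 to 27619758 and 38965515 to 39110188). *Lamb1*, *Nid1* and *Hspg2* had levels that ran together over the classes, while *Lama5* followed another order, and the stretches before the starts of these 4 genes are printed for this contrast. They come from RefSeq (GRCm38.p6), read 5′ to 3′ along the gene and end at the base before the first start given by RefSeq or GENCODE. Capitals mark GGGCGG, the GC box, or CCGCCC, the same letters on the other strand.
*Lamb1* (chr12:31265043-31265233, plus strand): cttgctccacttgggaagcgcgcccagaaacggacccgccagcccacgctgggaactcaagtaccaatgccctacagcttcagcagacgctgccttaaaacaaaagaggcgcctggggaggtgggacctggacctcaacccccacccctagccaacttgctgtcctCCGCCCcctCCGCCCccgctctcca
*Nid1* (chr13:13437352-13437550, plus strand): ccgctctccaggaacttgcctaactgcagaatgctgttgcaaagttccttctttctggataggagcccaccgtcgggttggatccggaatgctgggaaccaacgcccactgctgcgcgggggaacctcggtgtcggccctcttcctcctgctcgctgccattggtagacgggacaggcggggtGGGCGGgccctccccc
*Hspg2* (chr4:137468553-137468768, plus strand): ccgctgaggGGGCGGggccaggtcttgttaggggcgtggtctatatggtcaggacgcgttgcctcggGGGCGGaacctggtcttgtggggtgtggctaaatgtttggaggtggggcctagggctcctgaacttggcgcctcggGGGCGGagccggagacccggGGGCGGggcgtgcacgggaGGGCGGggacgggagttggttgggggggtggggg
*Lama5* (chr2:180225860-180226109, minus strand): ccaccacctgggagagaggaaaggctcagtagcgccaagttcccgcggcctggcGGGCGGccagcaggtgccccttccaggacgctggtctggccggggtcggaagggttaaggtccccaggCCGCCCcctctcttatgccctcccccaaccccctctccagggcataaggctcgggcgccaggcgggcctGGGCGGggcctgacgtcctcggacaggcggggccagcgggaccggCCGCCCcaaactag
The GC box, searched on both strands of the 300-base window around the RefSeq start, occurred 2 times for *Lamb1*, 1 time for *Nid1*, 5 times for *Hspg2* and 4 times for *Lama5*. It is a common run of letters, held by 35.7% of the 32851 mouse promoters in the table. Neither TATAAA (13.6% of promoters) nor TGACTCA, the AP-1 site (5.20%), occurred in the windows of the 6 members with an entry, which also include *Lama2* and *Lamb2*. The GC content of the windows was 63.7%, 64.7%, 70.3% and 72.7% for *Lamb1*, *Nid1*, *Hspg2* and *Lama5*. The letters searched thus did not separate the 3 genes that ran together from *Lama5*. *Lama3*, *Lama4*, *Lamc1* and *Nid2* had no entry.

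*Lama4*, the α chain of laminins typical of vessels, was a transcript of ECs, pericytes and fibroblasts. In ECs it stood at 263 CPM (239 to 287, 475 UMIs) in *sGC Ctr* and 319 CPM (287 to 353, 367 UMIs) in *sGC ΔPC*. In pericytes it was at 171 CPM (134 to 214) and 110 CPM (77.0 to 152), and in fibroblasts at 264 CPM (245 to 283) and 190 CPM (174 to 207). ECs and fibroblasts did not differ in *sGC Ctr* beyond counting error, at a fold of 0.996 (0.886 to 1.12), while in *sGC ΔPC* the level in ECs was 1.68-fold (1.47 to 1.92) that in fibroblasts. Cancer cells held *Lama4* at 0.736 and 1.56 CPM and macrophages at 0.419 and 1.16 CPM, so ECs stood 357-fold and 204-fold above cancer cells. *Lama4* was found in 83.3% and 82.0% of ECs, and in 50.8% and 44.4% after thinning each cell to 2000 UMIs and leaving out shallower cells (3 and 7 ECs), against 0 and 1.56% of thinned T cells.

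*Lama5*, the other α chain of endothelial laminins, was shared by ECs and cancer cells. Its level in ECs was 93.4 CPM (79.9 to 109) and 75.6 CPM (60.5 to 93.2), and in cancer cells 69.1 CPM (68.3 to 69.9) and 65.1 CPM (64.2 to 65.9). ECs were thus 1.35-fold (1.16 to 1.57) above cancer cells in *sGC Ctr*, and in *sGC ΔPC* the fold of 1.16 (0.929 to 1.43) did not leave 1. Pericytes had 27.3 and 27.5 CPM on 12 and 9 UMIs, and fibroblasts 11.0 and 17.9 CPM. In pericytes of *sGC Ctr*, 1 cell held 6 of the 12 UMIs, a spread that counting intervals do not cover. The cancer RNA estimated in these classes would alone carry 4.40 and 8.94 CPM of *Lama5* in pericytes and 4.18 and 11.2 CPM in fibroblasts. Of the classes that hold no basement membrane, macrophages read 12.7 and 15.5 CPM, T cells 20.8 and 8.92 CPM, and granulocytes, with 19.9% and 24.0% cancer RNA, 30.9 and 33.0 CPM. The pericyte intervals (14.1 to 47.7 and 12.6 to 52.1) and the fibroblast intervals (7.44 to 15.6 and 13.4 to 23.5) lay above the estimate from cancer RNA, while the levels themselves were below those of granulocytes. That estimate leaves out RNA of ECs, whose part was not tested.

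*Lama2*, the α chain best known from muscle and nerve, was a transcript of pericytes and fibroblasts. Pericytes had 68.3 CPM (46.1 to 97.5, 30 UMIs) and 54.9 CPM (32.6 to 86.8, 18 UMIs), and fibroblasts 42.8 CPM (35.5 to 51.1) and 32.4 CPM (26.2 to 39.7). The level in pericytes was 1.60-fold (1.03 to 2.40) that in fibroblasts in *sGC Ctr*. In *sGC ΔPC* the fold of 1.69 (0.963 to 2.83) did not leave 1. In ECs *Lama2* had 0 UMIs in 66 and in 61 cells, where 3 UMIs would be 1.66 and 2.61 CPM. Cancer cells held 0.348 and 0.408 CPM. *Lama3*, the α chain of epithelial laminins, was found in ECs on a few molecules. They had 10 UMIs in each library, in 9 and 7 cells, at 5.53 CPM (2.65 to 10.2) and 8.69 CPM (4.16 to 16.0). Pericytes, fibroblasts, macrophages, granulocytes and T cells had 0 UMIs in both libraries, and the cancer cells together had 3 in each. Against 3 UMIs in the fibroblasts, the fold of ECs was 5.21 and 8.39, and the exact lower limits against their 0 UMIs were 3.51 and 5.64. In pericytes 3 UMIs would be 6.83 and 9.16 CPM, above the level in ECs, so that a difference between ECs and pericytes was not detectable at this depth. The same held for T cells, where 3 UMIs would be 10.4 and 8.92 CPM.

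**Figure D1:**
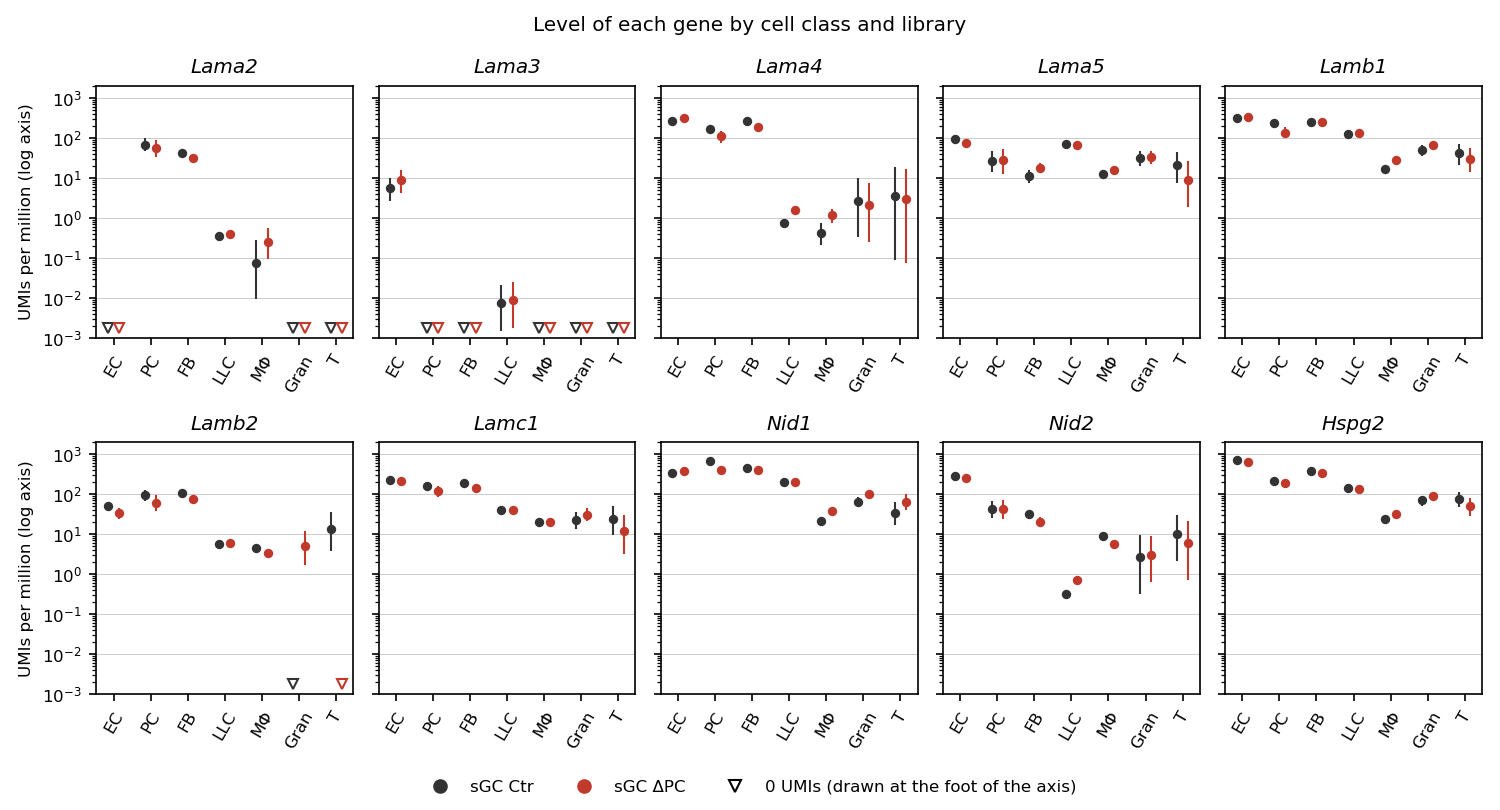
Level of each of the 10 genes in CPM (log axis) in each cell class of the *sGC Ctr* and *sGC ΔPC* libraries, 1 library each; points are class totals, bars are exact 95% Poisson intervals for counting error (PC, pericytes, FB, fibroblasts, LLC, cancer cells, MΦ, macrophages), and triangles at the foot of the axis are classes with 0 UMIs. *Lama4* and *Nid2* stand far above cancer cells in ECs (263 against 0.736 and 290 against 0.323 CPM in *sGC Ctr*), whereas *Lama5* does not (93.4 against 69.1 CPM).

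*Lamb1* and *Lamc1*, the β and γ chains found in most laminins, were spread over the stroma and the cancer cells. *Lamb1* stood at 321 CPM (295 to 348) and 327 CPM (295 to 362) in ECs, 237 CPM (193 to 287) and 137 CPM (100 to 184) in pericytes, 255 and 247 CPM in fibroblasts, and 129 and 136 CPM in cancer cells. *Lamc1* stood at 222 and 215 CPM in ECs, 159 and 119 CPM in pericytes, 190 and 142 CPM in fibroblasts, and 40.9 and 40.6 CPM in cancer cells. For both genes ECs had the highest level of any class. *Lamb2*, the β chain of mature vessel and nerve-muscle membranes, had another order, with 106 and 76.6 CPM in fibroblasts, 93.3 and 61.0 CPM in pericytes, 49.7 and 33.9 CPM in ECs, and 5.75 and 5.93 CPM in cancer cells. ECs were at 0.533-fold (0.365 to 0.791) and 0.555-fold (0.316 to 1.00) the level of pericytes and at 0.471-fold and 0.442-fold that of fibroblasts for *Lamb2*. The fold against pericytes in *sGC ΔPC*, on 39 and 20 UMIs, did not leave 1.

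The nidogens, which link laminin to type IV collagen, were spread differently over the classes. *Nid1* was highest in pericytes of *sGC Ctr*, at 671 CPM (597 to 752), followed by fibroblasts at 461 CPM (436 to 486), ECs at 332 CPM (306 to 360) and cancer cells at 201 CPM (200 to 203). In *sGC ΔPC* pericytes (412 CPM, 345 to 488), fibroblasts (414 CPM, 391 to 438) and ECs (374 CPM, 340 to 411) could not be ordered within their intervals, and cancer cells had 205 CPM. The level in ECs was 0.495-fold (0.430 to 0.571) and 0.908-fold (0.747 to 1.11) that in pericytes. *Nid2* was highest in ECs, at 290 CPM (265 to 316, 524 UMIs) and 252 CPM (224 to 283, 290 UMIs). Pericytes had 43.2 and 42.7 CPM, fibroblasts 32.9 and 20.7 CPM, and cancer cells 0.323 and 0.720 CPM. The part of EC RNA in the pericyte level was not tested. ECs stood 6.70-fold (4.25 to 11.2) and 5.89-fold (3.46 to 10.9) above pericytes for *Nid2*, 8.81-fold and 12.2-fold above fibroblasts, and 896-fold and 350-fold above cancer cells. *Nid2* UMIs were found in 39.7% and 33.3% of thinned ECs (77.3% and 70.5% of all ECs), against 2.86% and 1.56% of thinned T cells.

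*Nid2* was also found at a low level in macrophages, at 9.25 CPM (8.13 to 10.5, 243 UMIs in 197 cells) and 5.71 CPM (4.78 to 6.76, 133 UMIs in 109 cells). Granulocytes read 2.69 and 3.09 CPM on 2 and 3 UMIs, and T cells 10.4 and 5.95 CPM on 3 and 2 UMIs, too few to set the macrophage level against. There were 243 *Nid2* to 11 *Lama4* UMIs in macrophages of *sGC Ctr* and 133 to 27 in *sGC ΔPC*, against 524 to 475 and 290 to 367 in ECs. Endothelial genes were low in macrophages with and without a *Nid2* UMI, with *Pecam1* at 2.12 against 3.70 CPM and 1.69 against 6.08 CPM, *Cdh5* at 1.51 against 1.79 CPM and 1.13 against 2.00 CPM, and *Cldn5*, on 4 and 1 UMIs in the cells with *Nid2*, at 1.21 against 0.523 CPM and 0.563 against 0.697 CPM. By genes chosen after the values were seen, they had more of *Lyve1*, a hyaluronan receptor of tissue macrophages (159 against 42.4 CPM, and 215 against 31.2 CPM), and of *Mki67*, a proliferation marker (294 against 117 CPM, and 206 against 76.2 CPM). They were also deeper, with a median of 15886 against 11179 UMIs and 15652 against 4925. The parts of depth and of RNA from ECs in the macrophage *Nid2* counts were not tested. *Nid2* overlaps *Rtraf*, a gene on the other strand, by up to 437 exon bases. *Rtraf* was at 192 against 182 CPM and 187 against 168 CPM in macrophages with and without a *Nid2* UMI, and at 198 and 194 CPM in cancer cells, where *Nid2* was below 1 CPM. The part of *Rtraf* reads in the *Nid2* counts was not tested.

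*Hspg2* encodes perlecan, the large heparan sulfate proteoglycan of the basement membrane. It had its highest level in ECs, at 720 CPM (682 to 760, 1303 UMIs) and 631 CPM (586 to 678, 726 UMIs). Fibroblasts followed at 376 and 342 CPM, pericytes at 214 and 186 CPM and cancer cells at 144 and 139 CPM. ECs were 3.37-fold and 3.39-fold above pericytes, 1.92-fold and 1.84-fold above fibroblasts, and 4.99-fold and 4.52-fold above cancer cells. *Hspg2* was the member with the highest level in ECs in both libraries. Reads of 70.0 and 90.7 CPM in granulocytes and 76.2 and 50.5 CPM in T cells mark the level that classes without a basement membrane showed, of which the estimated cancer RNA would carry 28.7 and 33.5 CPM in granulocytes and 20.8 and 19.6 CPM in T cells.

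By level, then, *Lama3*, *Lama5*, *Lamb1*, *Lamc1*, *Nid2* and *Hspg2* were highest in ECs in both libraries, and *Lama4* in *sGC ΔPC*. Not all of these ranks were set by the counts. ECs could not be told from pericytes or T cells for *Lama3*, nor from cancer cells for *Lama5* in *sGC ΔPC*. The share of all genes that were highest in ECs was not computed, so it is not known whether the members stand out in this. By number of molecules the order was different. Cancer cells, the most numerous class, held most of the UMIs of 6 genes in both libraries, with 92.3% and 90.5% for *Lama5*, 91.1% and 89.2% for *Lamb1*, 89.3% and 88.4% for *Nid1*, 88.8% and 87.3% for *Hspg2*, 85.5% and 84.1% for *Lamc1*, and 72.6% and 75.6% for *Lamb2*. They held 86.4% and 83.9% of the UMIs of all genes, so that these shares lie near, and for *Lamb2* below, that of any transcript. Under the stricter gate, which keeps 3783 and 5668 cancer cells and moves the others to no class, they held most of the UMIs of 2 and 0 genes. *Nid2*, *Lama4* and *Lama2* had shares in cancer cells far below those of all genes. ECs, which made up 0.540% and 0.271% of the kept cells, held 48.9% and 33.7% of all *Nid2* UMIs, macrophages 22.7% and 15.4%, and cancer cells 12.4% and 28.9%. *Lama4* was divided between fibroblasts (42.6% and 30.5%), ECs (27.1% and 20.3%) and cancer cells (17.3% and 30.0%). *Lama2* was divided between cancer cells (41.8% and 43.7%), fibroblasts (35.4% and 29.1%) and pericytes (8.77% and 5.57%). UMIs of *Lama2* were found in only 1.53% and 0.949% of cancer cells, of *Lama4* in 2.11% and 3.11%, and of *Nid2* in 1.56% and 1.68%. The part of stromal RNA and of doublets in these cancer cell shares was not tested. All of the shares depend on how many cells of each class were released from the tissue and on RNA per cell. These cannot be told apart here. The shares also moved with the gate and with thinning, as given below.

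**Figure D2:**
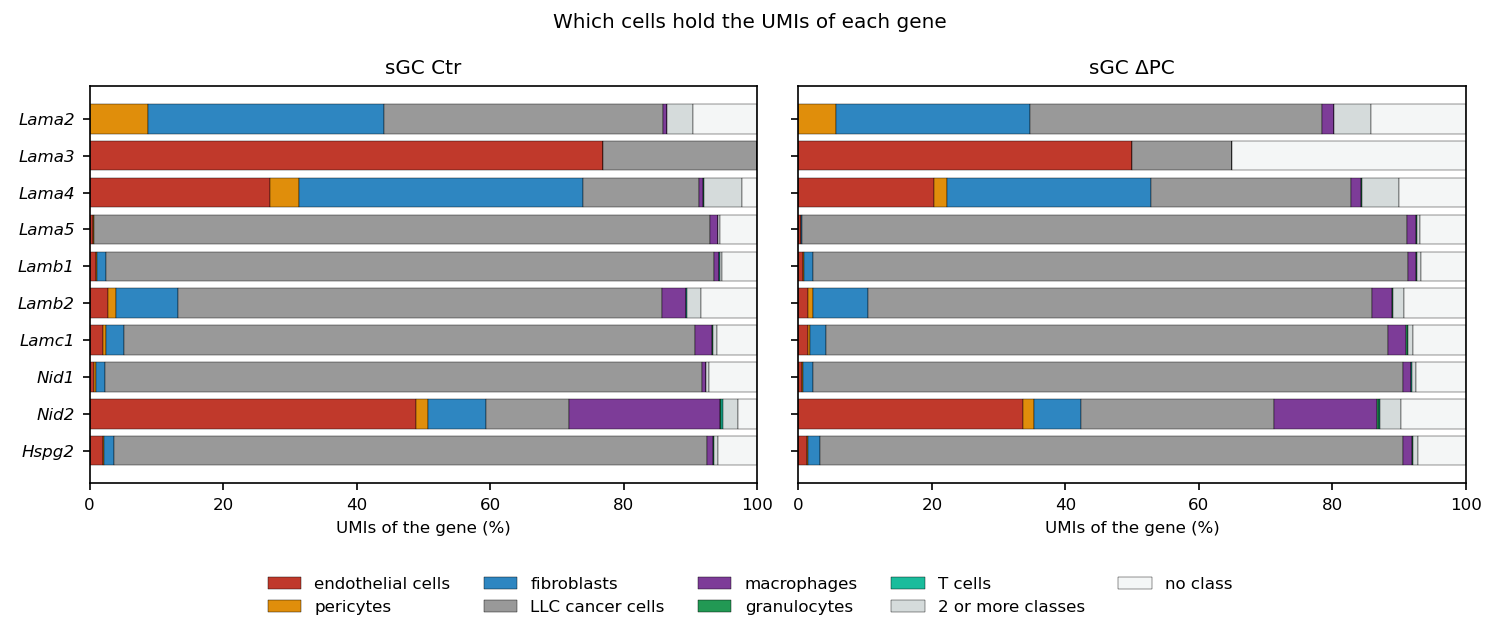
Percent of each gene's UMIs in the library that fell in each cell class, as stacked bars from 0 to 100% for *sGC Ctr* and *sGC ΔPC*. Cancer cells take most of *Lama5*, *Lamb1*, *Lamb2*, *Lamc1*, *Nid1* and *Hspg2*, whereas ECs take 48.9% and 33.7% of *Nid2* and fibroblasts 42.6% and 30.5% of *Lama4*.

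Within the stromal cells alone, that is ECs, pericytes and fibroblasts together, ECs held 82.4% and 79.7% of the *Nid2* UMIs, 79.7% and 58.8% of *Lama5*, and 53.0% and 40.8% of *Hspg2*. Fibroblasts, the most numerous of the 3 classes, held 80.1% and 83.9% of *Lama2*, 69.5% and 79.0% of *Lamb2*, 59.3% and 68.0% of *Nid1*, 57.6% and 57.8% of *Lama4*, 53.2% and 59.0% of *Lamc1*, and 51.4% and 62.9% of *Lamb1*. Of *Hspg2* they held 43.2% and 55.7%, so that its largest holder was ECs in *sGC Ctr* and fibroblasts in *sGC ΔPC*. Leaving out *Lama3*, which had no UMI in them, pericytes held between 2.99% and 19.9% of a gene in *sGC Ctr* and between 3.43% and 16.1% in *sGC ΔPC*, with *Lama2* at the top of both ranges.

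The make-up of the laminin chains differed between classes. Of all α chain UMIs in ECs, *Lama4* made up 72.6% (69.0 to 76.0) and 79.1% (75.1 to 82.7), *Lama5* 25.8% and 18.8%, and *Lama3* 1.53% and 2.16%. In pericytes *Lama4* made up 64.1% and 57.1%, *Lama2* 25.6% and 28.6%, and *Lama5* 10.3% and 14.3%. Fibroblasts had 83.1% and 79.1% *Lama4* and 13.5% *Lama2* in both libraries. In cancer cells *Lama5* made up 98.4% and 97.0% of the α chain UMIs, so that the cancer cells and the stroma were told apart by their α chain. *Lamb1* made up 86.6% and 90.6% of the β chain UMIs in ECs and 95.7% and 95.8% in cancer cells, but 71.7% and 69.2% in pericytes and 70.6% and 76.4% in fibroblasts, where the rest was almost all *Lamb2*. *Nid2* made up 46.6% (43.6 to 49.5) and 40.2% (36.6 to 43.9) of nidogen UMIs in ECs and between 4.76% and 9.40% in pericytes and fibroblasts.

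**Figure D3:**
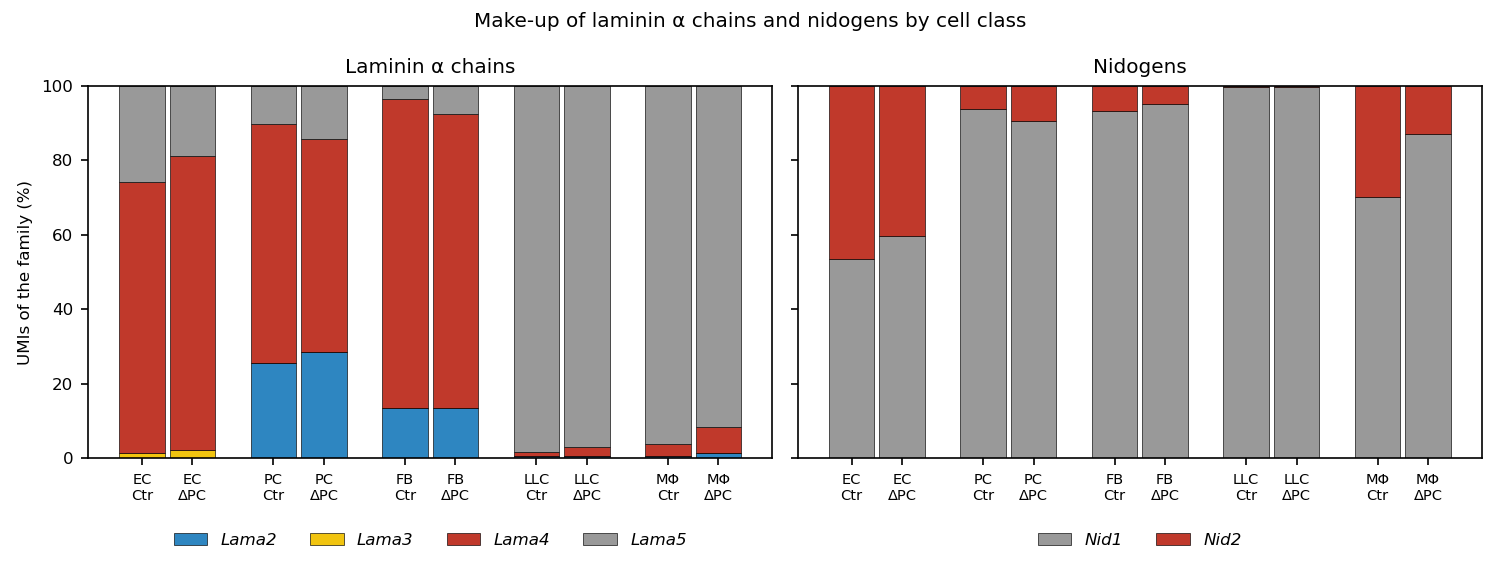
Percent of the α chain UMIs and of the nidogen UMIs that belonged to each gene, as stacked bars from 0 to 100% for ECs, pericytes (PC), fibroblasts (FB), cancer cells (LLC) and macrophages (MΦ) of each library. *Lama4* leads the α chains in ECs, pericytes and fibroblasts, *Lama5* in cancer cells (98.4% and 97.0%), and *Nid2* reaches 46.6% and 40.2% of the nidogen UMIs in ECs.

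A laminin needs its 3 chains in 1 cell, and many ECs held all of them. *Lama4* was found together with a β chain and *Lamc1* in 53 of 66 ECs of *sGC Ctr* (80.3%) and 32 of 61 of *sGC ΔPC* (52.5%), in 57.9% and 29.5% of pericytes, in 84.5% and 32.6% of fibroblasts and in 1.89% of cancer cells of both libraries. After thinning to 2000 UMIs ECs stood at 7.94% and 11.1%, fibroblasts at 6.35% and 5.09%, and pericytes at 0 in both libraries. The higher unthinned share in *sGC Ctr* was therefore not seen at equal depth in ECs. *Lama4* and *Lama5* were found in the same cell in 66.7% and 50.8% of ECs, 13.2% and 9.09% of pericytes and 17.8% and 7.58% of fibroblasts, and after thinning in 6.35% and 9.26% of ECs and 0 and 3.57% of pericytes. Of the ECs with a *Nid2* UMI, 51 of 51 and 42 of 43 also had *Nid1*, and after thinning 10 of 25 and 11 of 18.

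Over the 14 values given by 7 classes in both libraries, the members ran together to different degrees, without a clean split. Pearson's r of log2(CPM + 1) was 0.97 for *Lamb1* with *Hspg2*, 0.95 for *Lamb1* with *Nid1* and 0.93 for *Lamb1* with *Lamc1*. For *Lama4* it was 0.94 with *Lamc1* and 0.87 with both *Nid2* and *Hspg2*. It was 0.50 for *Nid1* with *Nid2* and 0.55 for *Lama5* with *Lamb1*. These are descriptions of points that share libraries and differ in depth. Among 12548 genes with at least 500 UMIs, the gene most like *Hspg2* was *Pxdn*, the peroxidase that cross-links type IV collagen (0.989). *Lamc1* was closest to *Sparc*, a collagen-binding matrix protein (0.976), and *Nid1* to *Fermt2*, an integrin activator, and *Serpinh1*, a collagen chaperone (both 0.979). *Lama2* was closest to *Fap*, a fibroblast surface protease (0.998), *Lama4* to *Tshz2* (0.981), *Lama5* to *Cavin2*, a caveolar protein (0.947), *Lamb1* to *Ppic* (0.980), *Lamb2* to *Abca5* (0.980), *Nid2* to *Rtl8a* (0.964) and *Lama3* to *Myct1*, an endothelial gene (0.993, on 26 *Lama3* UMIs).

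ECs varied among themselves in these genes. They were divided at 10 UMIs per 10000 of 6 genes known from sprouting tip cells (*Esm1*, *Apln*, *Angpt2*, *Kcne3*, *Cxcr4* and *Pgf*), a list chosen after the data had been seen, which put 28 and 32 ECs above the line and 38 and 29 below it. *Nid2* was at 399 CPM above and 191 CPM below the line in *sGC Ctr* (log2 ratio 1.06, 0.80 to 1.33), and at 297 and 171 CPM in *sGC ΔPC* (0.80, 0.40 to 1.21). *Lama4* was also higher above the line, by 0.78 (0.51 to 1.06) and 0.50 (0.17 to 0.85) on the log2 scale, as were *Lamb1* (0.70 and 0.44), *Hspg2* (0.60 and 0.29) and *Lamc1* (0.47 and 0.57). *Lamb2* went the other way, at 25.6 against 71.5 CPM and 16.2 against 65.9 CPM (-1.48 and -2.03). *Lama5* was at 80.4 against 105 CPM (-0.39, -0.85 to 0.07) and 55.3 against 112 CPM (-1.02, -1.67 to -0.38). All 10 *Lama3* UMIs of *sGC ΔPC* lay below the line, whereas in *sGC Ctr* 4 lay above and 6 below it. ECs above the line were deeper (median 28235 against 20642 UMIs, and 16029 against 11717), and their estimated cancer RNA was 4.61% against 10.2% and 6.53% against 4.78%. The part of depth and cancer RNA in these differences was not tested, and the cells of a library are not replicates.

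**Figure D4:**
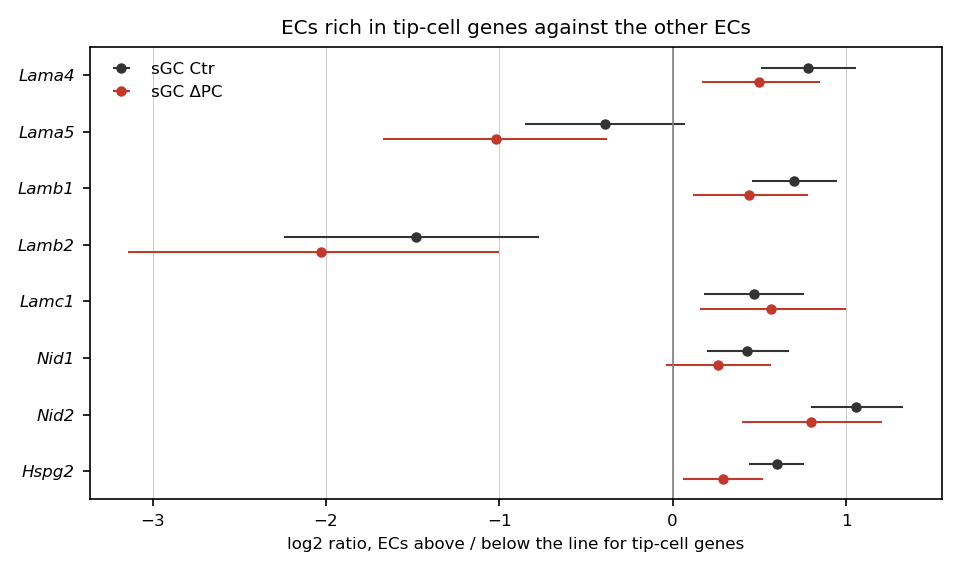
Log2 ratio of each member's level in ECs above the tip-cell line to that in ECs below it, within *sGC Ctr* (28 against 38 cells) and *sGC ΔPC* (32 against 29 cells); bars are exact 95% intervals for counting error and the line marks no difference. *Nid2* and *Lama4* lie above 0 and *Lamb2* below 0 in both libraries.

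Among fibroblasts divided by adventitial genes (*Pi16*, *Cd34*, *Ly6c1*, *Ly6a*, *Clec3b* and *Dpt*, also chosen after the data had been seen), *Lama4* was higher in the 72 and 88 cells above the line by 0.63 (0.41 to 0.86) and 0.37 (0.13 to 0.62) on the log2 scale. *Lama5* was lower there, by -1.46 and -1.40, on 31 and 52 UMIs in all. *Nid1* was alike on both sides of the line within counting error, at 0.13 (-0.03 to 0.29) and 0.04 (-0.12 to 0.21). Cancer cells above a line for mesenchymal genes such as *Lum* and *Dcn* had more *Lama2* (1.03 against 0.126 CPM, and 0.943 against 0.222 CPM) and more *Lama4* (1.63 against 0.445 CPM, and 2.98 against 1.07 CPM), still far below the stromal levels. *Dcn* is also a fibroblast marker of the gate, so the line can pick cancer cells that carry fibroblast RNA. The part of fibroblast RNA in these values was not tested. Macrophages above a line for *Lyve1*, *Cd163*, *Folr2* and *Timd4* had *Nid2* at 12.0 against 4.44 CPM and 7.50 against 3.85 CPM. *Lyve1* had already been seen to be higher in the same macrophages with a *Nid2* UMI, so this split restates that association. The part of depth in it was not tested.

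Between the libraries, the members of ECs differed little. Of the 8 members whose UMIs in *sGC Ctr* and *sGC ΔPC* came to 50 or more, 0 differed by 2-fold, where 0.859% of all 6405 genes measured in ECs were lower and 0.984% higher by this rule. *Lama4* was the member whose interval lay above 0, at a log2 ratio of *sGC ΔPC* to *sGC Ctr* of 0.28 (0.08 to 0.48), against 8.31% of all genes. *Hspg2* lay below 0, at -0.19 (-0.32 to -0.06), against 8.01% of all genes. *Nid1* was at 0.17, *Nid2* at -0.20, *Lama5* at -0.31, *Lamb2* at -0.55, *Lamb1* at 0.03 and *Lamc1* at -0.05. The median of the 8 was -0.12 and that of all genes 0.01. The signs were not stable: under a stricter marker gate *Lama4* turned to -0.02 and *Lama5* to 0.06, under 25% cancer RNA *Lamb1* turned to -0.03, and after thinning *Lama4* turned to -0.10, *Hspg2* to 0.08, *Lama5* to 0.54, *Lamc1* to 0.28 and *Lamb1* to -0.22.

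In pericytes all 6 measured members were lower in *sGC ΔPC*, with a median log2 ratio of -0.62 against -0.08 over all 2283 genes, of which 59.7% were lower. None of the 6 passed 2-fold (by which rule 1.71% of all genes were lower and 1.31% higher), and 3 of 6 had intervals below 0, against 10.8% of all genes, and 0 had intervals above 0, against 6.31%. These were *Lamb1* at -0.78 (-1.32 to -0.27), *Nid1* at -0.70 (-1.01 to -0.41) and *Lama4* at -0.64 (-1.25 to -0.04), while *Lamb2* was at -0.61, *Lamc1* at -0.42 and *Hspg2* at -0.20. Estimated cancer RNA was higher in pericytes of *sGC ΔPC* (13.7% against 6.37%). The pericyte classes also differed in make-up. Those with 3 or more smooth muscle markers were 18 of 38 in *sGC Ctr* and 8 of 44 in *sGC ΔPC*. The median depth of the pericytes was 10371.5 and 4436 UMIs. The parts of this make-up and of depth in the ratios were not tested. In pericytes under 25% cancer RNA, 35 and 29 cells, the ratios were -0.66 for *Lamb1*, -0.70 for *Nid1*, -0.43 for *Lama4* and -0.11 for *Hspg2*, with a median of -0.47 over the 6 genes. After thinning, the median was -0.20, but 2 of the 6 turned, *Lama4* to 1.10 (on 6 of 36 and 8 of 28 cells with a UMI) and *Lamc1* to 0.53.

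In fibroblasts 8 of 9 measured members were lower in *sGC ΔPC*, 6 of them with intervals below 0 (11.8% of all 8487 genes), and the median was -0.40 against -0.04 over all genes. An interval leaves 0 more readily at more UMIs. Here and in the other classes the genes set beside the members were not matched to them in UMIs. *Lama5*, at 0.71 (0.04 to 1.40), lay above 0 (8.60% of all genes). Of its 11.0 and 17.9 CPM in fibroblasts, the estimated cancer RNA would carry 4.18 and 11.2 CPM. The part of cancer RNA in this ratio was not tested. None of the 9 measured members passed 2-fold (1.19% of all genes lower, 1.76% higher). The share of all genes that was lower was 55.9%. The median moved to -0.11 in cells under 25% cancer RNA and to -0.10 under the stricter gate, and was -0.36 after thinning. *Lama4* went from -0.47 to -0.20 and -0.22 in cells under 25% and under the stricter gate, but to -0.80 after thinning, and *Lamc1* from -0.42 to -0.14, -0.10 and -0.61. *Nid2* went from -0.67 to -0.47, -0.61 and -0.04 under the same 3 settings.

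In cancer cells *Lama4* and *Nid2* passed 2-fold, at 1.09 (0.88 to 1.29) and 1.16 (0.85 to 1.47), where 3.67% of all 15372 genes were higher and 0.169% lower by this rule. They are 2 of 9 measured members, both are stromal genes by level, and the levels were at most 1.56 CPM. The fibroblast list stood at 7.02 and 7.48 and the endothelial list at 0.471 and 0.542 per 10000 UMIs in cancer cells. The part of stromal RNA in these values was not tested. The other 7 members lay between -0.09 and 0.23. In macrophages 7 members were measured and 0 passed 2-fold (0.306% of all 11768 genes lower, 1.09% higher). *Nid2* was at -0.70 (-1.01 to -0.39), against 25.8% of all genes with intervals below 0, and 4 of 7 lay above 0, against 13.1% of all genes. *Nid1* was at 0.80, *Lamb1* at 0.71, *Hspg2* at 0.43, *Lama5* at 0.29, *Lamc1* at 0.03 and *Lamb2* at -0.40. The median of the 7 was 0.29, but -0.05 under the stricter gate, where *Lama5* turned to -0.14, and 0.08 in cells under 25% cancer RNA. *Nid1* in macrophages was at 21.8 and 38.1 CPM, of which the estimated cancer RNA would carry 16.3 and 23.5 CPM. *Nid2* in macrophages was at 9.25 and 5.71 CPM, of which it would carry 0.0262 and 0.0827 CPM.

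**Figure D5:**
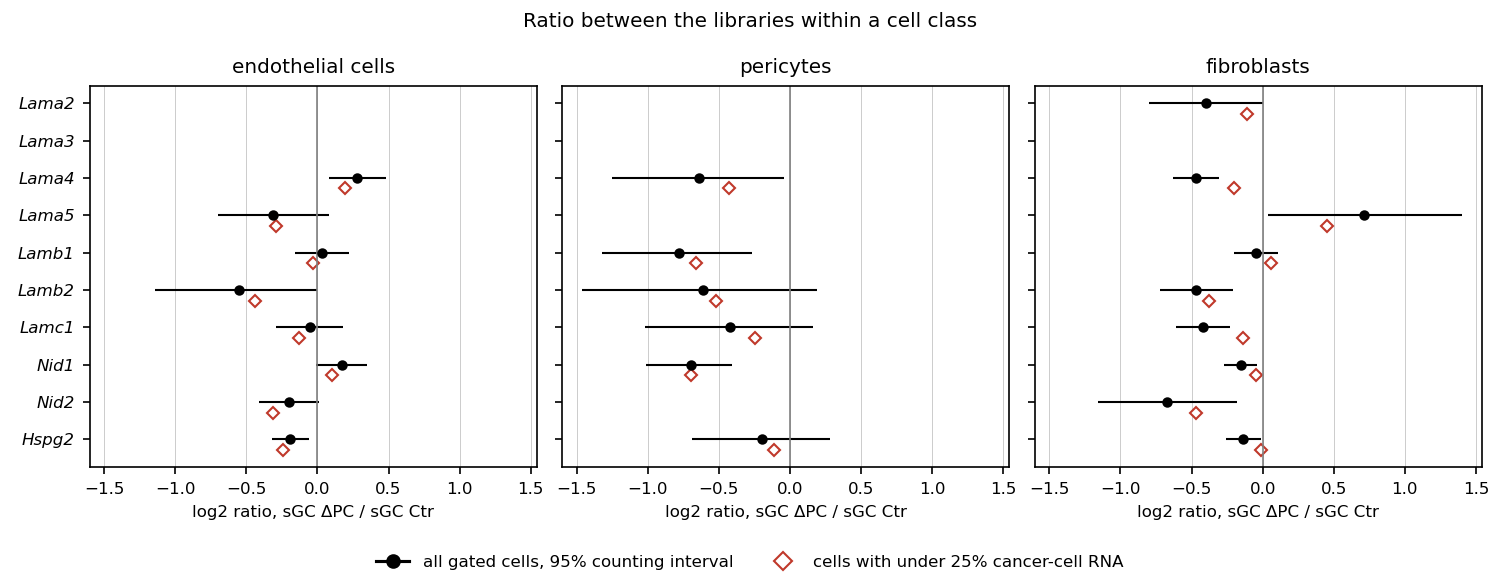
Log2 ratio of *sGC ΔPC* to *sGC Ctr* for each member with 50 or more UMIs in ECs, pericytes or fibroblasts; points are ratios of class totals, bars exact 95% intervals for counting error, and diamonds the ratios in cells under 25% cancer RNA. All 6 pericyte points lie below 0 with either set of cells, whereas the fibroblast diamonds lie nearer to 0 than the points for every gene but *Lamb1*, whose values are both close to 0.

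The rest of the basement membrane was followed through 48 genes listed by role. Type IV collagen, the network that nidogen and perlecan join to laminin, was a transcript of ECs and pericytes, with *Col4a1* at 3170 and 3165 CPM in ECs, 3070 and 2365 CPM in pericytes, 157 and 200 CPM in fibroblasts and 81.2 and 79.8 CPM in cancer cells. The members with the highest levels in vessel cells, *Hspg2* in ECs and *Nid1* in pericytes, were thus several-fold below *Col4a1*. The 4 measured collagens had a median log2 ratio of *sGC ΔPC* to *sGC Ctr* of -0.22 in ECs, -0.32 in pericytes and 0.36 in fibroblasts, in the last class opposite in sign to the members. Linkers and small partners were at -0.25 in ECs (8 of 9 lower), -0.83 in pericytes (3 of 3 lower) and -0.19 in fibroblasts. *Sparc* stood at 8649 and 4853 CPM in pericytes, a ratio of -0.83 (-0.92 to -0.75). Receptors, among them the laminin-binding integrins, dystroglycan and syndecans, were at 0.15 in ECs, -0.53 in pericytes (8 of 10 lower) and -0.07 in fibroblasts. Enzymes that cut the membrane were at 0.04, -0.08 and -0.30 in the same order.

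Over the whole list, 18 of 29 measured genes were lower in *sGC ΔPC* in ECs, 18 of 22 in pericytes and 20 of 29 in fibroblasts, with medians of -0.14, -0.29 and -0.12. Of all genes measured, 48.3%, 59.7% and 55.9% were lower. Those past 2-fold were *Itgb4*, the β subunit of a laminin-binding integrin, in ECs (26.5 and 11.3 CPM, ratio -1.23, -2.24 to -0.33), *Smoc2*, a calcium-binding matrix protein, in fibroblasts (50.5 and 15.2 CPM, -1.74) and *Itga6*, the α subunit that pairs with *Itgb4*, in fibroblasts (8.48 and 22.4 CPM, 1.40). In pericytes 0 of 22 passed 2-fold. The counts of 2-fold genes in ECs, pericytes and fibroblasts over all genes were 118, 69 and 250.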

How the data were processed

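Single-cell RNA libraries of LLC tumors, 1 of *sGC Ctr* and 1 of *sGC ΔPC* mice, were analysed from the UMI counts per gene and barcode that the authors deposited. Per the submitters' processing notes these were made with Cell Ranger 6.1.1 on mm10, and the authors had set aside empty barcodes. All values were whole numbers, and 0 columns lacked a sample. A cell was used if mitochondrial genes took less than 10% of its UMIs and its depth and gene number lay no further than 3 median absolute deviations, on a log scale, from the middle of its library.

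Classes were called from the counts of fixed marker lists: at least 3 markers found, and summed UMIs per 10000 above 40 for endothelial cells and pericytes, 100 for fibroblasts and granulocytes, 60 for macrophages, 20 for T cells and 8 for cancer cells. UMIs were summed per class and library and divided by the class total (CPM). The cancer RNA share of a class was its summed level of cancer markers divided by that in cancer cells. Ratios were given for genes whose UMIs in a class came to 50 or more over the libraries, and a fold of 2 served as a description. No p-value was computed, since each condition was 1 library of pooled tumors. Intervals are exact at 95%, and a floor of 3 UMIs stood in for 0. The interval code was tested on data simulated with counting error alone, which cannot show how the intervals fare with spread between cells or tumors.

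The members, marker lists and gene lists were chosen with earlier results of these data known. Genes named besides the members were those of the basement membrane list past 2-fold with at least 50 UMIs in endothelial cells, pericytes or fibroblasts, *Gucy1b1* and *Cspg4*, and for each member up to 3 genes of highest correlation. *Col4a1*, *Sparc* and the genes described in *Nid2* macrophages, with *Rtraf*, were chosen after their values were seen, as were the lists that divide a class. Alternatives were a stricter gate (lines 2-fold higher, 4 markers), Leiden clusters of each library (3000 variable genes, 20 components, 15 neighbors, resolution 1.0), cells under 25% cancer RNA, thinning to 2000 UMIs, the mean of CPM per cell, no limits on deviation, the cell with the most UMIs of a gene left out, and minimums of 20 and 200 UMIs. Promoters and gene positions came from RefSeq (GRCm38.p6) and GENCODE tables. Computation used Python 3.11.15, NumPy 2.4.6, pandas 2.3.3, SciPy 1.17.1, scanpy 1.11.5, leidenalg 0.10.2 and matplotlib 3.10.9.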

Additional observations from a re-analysis of the deposited data

Results flagged for a closer look

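For 6 members the log2 ratio of *sGC ΔPC* to *sGC Ctr* had opposite signs in different cell classes, with intervals that did not reach 0 in either. With 1 library per condition none of these differences was tested. The share of all genes that meet this rule was not computed. Every gap listed includes a value of cancer cells or macrophages, where many genes have intervals off 0. In cancer cells these were 26.5% of all genes below 0 and 30.7% above it, and in macrophages 25.8% and 13.1%. The widest gap per gene was 1.72 for *Lama4* (cancer cells 1.09, pericytes -0.64), 1.85 for *Nid2* (cancer cells 1.16, macrophages -0.70), 1.51 for *Nid1* (macrophages 0.80, pericytes -0.70), 1.49 for *Lamb1* (macrophages 0.71, pericytes -0.78), 0.80 for *Lama5* (fibroblasts 0.71, cancer cells -0.09) and 0.63 for *Hspg2* (macrophages 0.43, endothelial cells -0.19). Estimated cancer RNA in fibroblasts was 6.05% in *sGC Ctr* and 17.3% in *sGC ΔPC*. Its part in the *Lama5* gap was not tested.

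The cells that met no class also held stromal members. In *sGC ΔPC* these 6273 cells had *Lama4* at 5.20 CPM (4.47 to 6.02, 180 UMIs in 114 cells), against 1.28 CPM (39 UMIs) in the 2300 such cells of *sGC Ctr*. *Nid2* was at 2.43 CPM (84 UMIs) against 0.982 CPM (30 UMIs).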

How the results depend on the processing

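No paired analysis was possible because each condition has 1 library. Where a value moved, the cause was not tested unless the setting's own construction shows it. With the limits on deviation dropped, or with the cell that held most UMIs of a gene left out, 39 of 39 log2 ratios of members stayed within their intervals. Fewer stayed otherwise: 28 of 39 under the stricter gate, 16 of 39 for the mean per cell and 9 of 39 after thinning. Under 25% cancer RNA 25 of 30 stayed, and with Leiden clusters 3 of 16. Of 100 member levels by class and library, 52 stayed under the stricter gate, 56 for the mean per cell and 51 after thinning. The shares of a member's UMIs held by a class were less stable. Of 100 such shares, 34 stayed under the stricter gate and 14 after thinning, and with Leiden clusters 18 of 70 did. Under 25% cancer RNA 79 of 100 stayed, and with the limits on deviation dropped 100 of 100. Leiden clusters gave no value for endothelial cells, pericytes, fibroblasts and T cells of *sGC ΔPC*. In that library none of these classes was the most common gated class of any cluster, whereas in *sGC Ctr* each of them was. Clustering thus did not set these classes apart in *sGC ΔPC*, and their values there rest on the marker gate. Under the stricter gate, thinning, the mean per cell and the limit of 25% cancer RNA, the sign of a ratio turned among others in endothelial cells for *Lama4* (stricter gate -0.02, thinned -0.10), *Hspg2* (thinned 0.08), *Lama5* (stricter gate 0.06, thinned 0.54), *Lamc1* (thinned 0.28) and *Lamb1* (under 25% -0.03, thinned -0.22), in pericytes for *Lama4* (thinned 1.10) and *Lamc1* (thinned 0.53), in fibroblasts for *Lamb1* (under 25% 0.06), in cancer cells for *Lamb1* (thinned -0.08, mean per cell -0.09) and *Nid1* (-0.26 and -0.23), and in macrophages for *Lama5* (stricter gate -0.14). The median ratio of the members moved in fibroblasts to -0.10 (stricter gate) and -0.11 (under 25% cancer RNA), in cancer cells to 0.08 (Leiden), -0.13 (thinned) and -0.09 (mean per cell), and in macrophages to -0.05 (stricter gate), 0.98 (Leiden), 0.08 (under 25%), 0.48 (thinned) and 0.82 (mean per cell). Members with most UMIs in cancer cells numbered 2 and 0 under the stricter gate, which keeps 3783 and 5668 cancer cells. Of the shares in endothelial cells of *sGC Ctr*, *Nid2* of the nidogens was 58.4% and *Lama4* of the α chains 83.3% when thinned, and the latter was 73.8% in *sGC ΔPC* under the stricter gate. Cells with *Lama4*, a β chain and *Lamc1* were 7.94% (thinned) of endothelial cells in *sGC Ctr*, 76.5% (stricter gate) and 11.1% (thinned) in *sGC ΔPC*, and among fibroblasts 91.2% and 6.35% in *sGC Ctr* and 61.8%, 5.09% and, under 25% cancer RNA, 44.7% in *sGC ΔPC*. Genes past 2-fold in endothelial cells were 118, and 432 at 20 UMIs, 27 at 200 and 14 when thinned. In pericytes they were 69, and 427, 7 and 12, and in fibroblasts 250, and 597, 64 and 82. Depth limits T cells (288857 and 336320 UMIs, 0 members with 50 UMIs) and pericytes (439452 and 327632 UMIs, 6 members).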

Other observations

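Dividing cells left some members with different values within classes. Among cancer cells above a line for mitosis genes (*Mki67*, *Top2a*, *Ccnb1*, *Cdk1* and *Cenpf*), *Nid1* was at 164 against 221 CPM in *sGC Ctr* and 174 against 227 CPM in *sGC ΔPC*, and *Hspg2* at 128 against 153 CPM and 131 against 145 CPM. Among macrophages the cells above the same line had *Nid2* at 17.6 against 7.51 CPM and 9.68 against 5.10 CPM. *Mki67*, a gene of this list, had already been seen to be higher in macrophages with a *Nid2* UMI. The split thus restates that association, and the part of depth in it was not tested. Fibroblasts above a line for contractile genes such as *Acta2* and *Tagln* had *Lamc1* at 194 against 101 CPM in *sGC ΔPC* (log2 ratio 0.95, 0.65 to 1.24) and at 203 against 183 CPM in *sGC Ctr* (0.14, -0.12 to 0.40). These lists were chosen after the data had been seen, and the difference between the libraries was not tested. In cells of no class, *Lama3* had 7 UMIs in 4 cells of *sGC ΔPC* and 0 UMIs in *sGC Ctr*.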
